A study of Mus musculus with 9 samples.

Results

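C/EBPδ lacking its transactivation domain was compared with intact C/EBPδ in unstimulated RAW264.7 cells, a mouse macrophage line that grows from a tumour induced by the Abelson leukaemia virus. The comparison takes the 3 libraries whose genotype label is CEBPD TAD mutant, called ΔTAD here, and the 3 labelled CEBPD wild type, 6 of the 9 libraries of the series. The other 3 libraries are of C/EBPδ knock-out cells and enter the model and a few comparisons. Both genotypes were the same line grown in the same medium without any stimulus, and RNA was sequenced after depletion of ribosomal RNA. In ΔTAD cells, guides on either side of the domain removed it from the gene itself with CRISPR/Cas9, so that the shortened factor is made from its own promoter. The submitters' design text speaks of 3 independent clones, but the labels do not say which clone a library comes from or whether wild-type cells were cloned too. A difference that goes with the deletion and one that goes with the founding or handling of the edited clones therefore cannot be told apart, and the p-values measure the spread between these libraries.

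C/EBPδ is a basic leucine zipper protein. Its basic region contacts DNA, its zipper pairs it with itself or with another C/EBP, and its amino-terminal transactivation domain recruits the machinery that starts transcription. In macrophages the factor is known as an early response gene of bacterial lipopolysaccharide and interleukin signalling, and prostaglandin, chemokine and cytokine genes are among the targets attributed to the family. A factor that keeps the basic region and the zipper but lacks the activating part can in principle still occupy its sites.

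The depth was 16113306 to 20981829 counts on genes per library. All 10 macrophage markers examined (among them Adgre1, Cd68, Csf1r and Spi1) were above 3 counts in the 6 libraries, with a summed level of 3165 to 3337 CPM (counts relative to library size, with TMM factors that equalise the bulk of genes between libraries) in wild-type and 7019 to 7199 CPM in ΔTAD libraries, and 8 were called higher and 1 lower. Most of the rise of the sum was that of Lyz2, from 1167 ± 61.9 to 4192 ± 76.5 CPM. Of all tested genes 26.3% were called higher and 23.4% lower. Markers of T cells, B cells, neutrophils, fibroblasts and epithelium summed to at most 7.29 CPM. The endothelial list of 4 markers was the exception, with a sum of 6.08 to 7.38 CPM in wild-type and 17.1 to 18.6 CPM in ΔTAD libraries. Its members went both ways, since Vwf rose from 5.45 ± 0.384 to 17.8 ± 0.668 CPM and Kdr fell from 25, 10 and 12 counts to 1, 0 and 0 (adjusted p = 2.27e-06), and 1 of the 4 was above 3 counts in all 6 libraries.

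Library ΔTAD 1 was rich in ribosomal RNA. Genes for ribosomal RNA, or overlapping it, took 11.8% of its counts, against 1.22% and 1.23% in ΔTAD 2 and 3 and 0.668%, 0.347% and 0.767% in the wild-type libraries. At a cut-off of 2-fold, the excess was confined to few genes among those well expressed. Of 8961 genes with at least 10 CPM in ΔTAD cells, 8 differed more than 2-fold between ΔTAD 1 and the mean of the other ΔTAD libraries, all 8 were higher, and CT010467.1, the gene model with most of these reads, stood at 124000, 11490 and 11620 CPM against 6126, 2953 and 6659 CPM in wild-type. Lars2, the mitochondrial leucyl-tRNA synthetase, had 6343, 403 and 456 CPM in the ΔTAD and 187, 72.5 and 269 CPM in the wild-type libraries, a log2 fold change of 3.77 that was 1.26 without ΔTAD 1 (adjusted p = 5.41e-07). CT010467.1 went from 3.23 to 1.11 when that library was left out (adjusted p = 1.21e-08). Lars2 and CT010467.1 ranked the libraries in the same order, from ΔTAD 1 as the highest to wild-type 2 as the lowest. Whether reads counted for Lars2 come from ribosomal RNA was not tested, so its values are no measure of the synthetase transcript. Between ΔTAD 2 and 3 no gene differed more than 2-fold, and in wild-type libraries 2, 5 and 5 genes did. The coefficient of variation between replicates, estimated in common for all genes, was 0.0623 in ΔTAD libraries and 0.0264 without ΔTAD 1. In wild-type libraries it was 0.0346. Leaving out ΔTAD 1 shifted the median log2 fold changes of the chromosomes by −0.037 to −0.013.

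**Figure D1:**
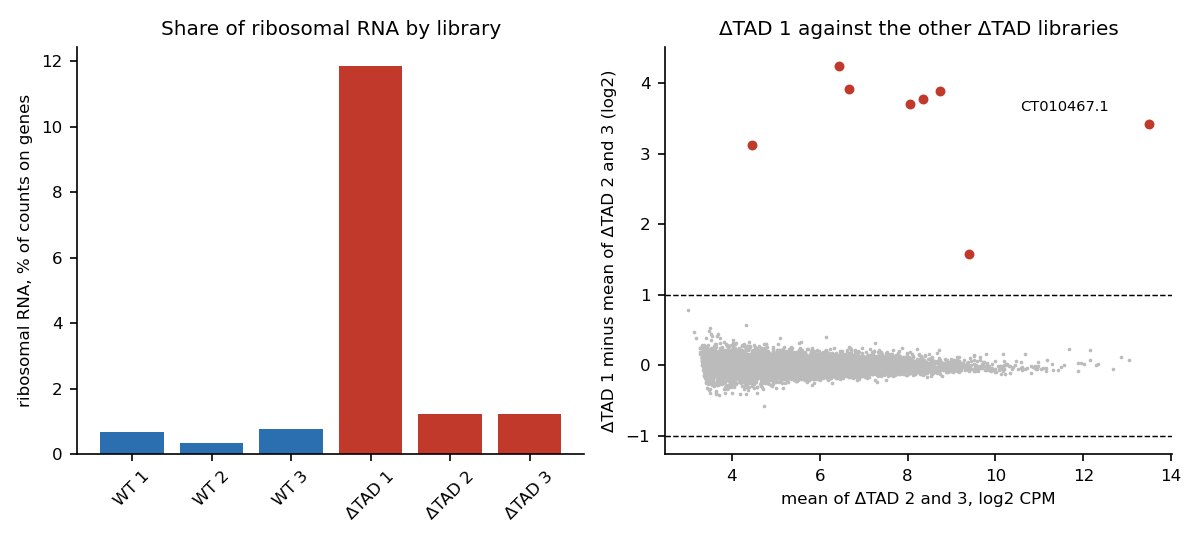
The left panel shows the share of counts on ribosomal RNA genes (%) in each of the 3 wild-type (blue) and 3 ΔTAD (red) libraries, with ΔTAD 1 at 11.8% and the other 5 at 1.23% or less. The right panel shows for 8961 genes the log2 difference of ΔTAD 1 from the mean of ΔTAD 2 and 3 against that mean, with 8 genes (red) above the dashed line of a 2-fold difference and none below.

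About as many genes were higher as lower in ΔTAD macrophages. Of 14312 genes tested with edgeR's quasi-likelihood test, 7115 were called at a Benjamini-Hochberg adjusted p under 0.01, a share of 49.7%, of which 3765 (26.3%) were higher and 3350 (23.4%) lower. Most calls were small, with a median absolute log2 fold change of 0.45. At 2-fold or more 585 genes were higher and 748 lower, at 4-fold 145 and 279, and at 8-fold 57 and 153, so that the larger differences lay more often on the lower side. The 3 ΔTAD and 3 wild-type libraries did not overlap in 9028 genes (63.1%). When libraries were scaled by their total counts alone, 2585 genes were higher and 3943 lower, a share of 39.6% higher among the calls against 52.9% with TMM, and the median of all genes moved from −0.0033 to −0.0888. Without ΔTAD 1 the counts were 3409 and 3618.

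**Figure D2:**
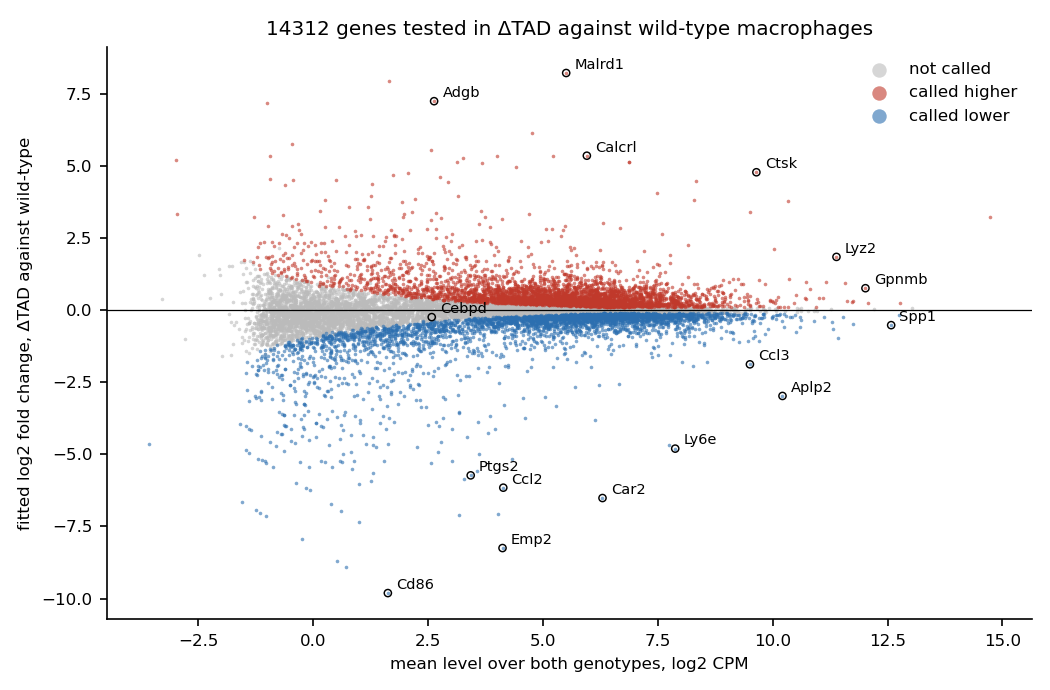
Each point is 1 of 14312 genes, with its mean level over both genotypes (log2 CPM) on the horizontal and the fitted log2 fold change of ΔTAD against wild-type on the vertical axis. Called genes are red (3765 higher) or blue (3350 lower). Large differences occur at low and at high levels, Cebpd lies near 0, and fitted values of genes without counts in 1 genotype, such as Cd86, are no measure of their size.

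RNA of the edited gene did not differ by a margin that passed the test. Cebpd, on the plus strand of chromosome 16 from 15887286 to 15891031 (GRCm38), stood at 6.13, 7.29 and 6.12 CPM in wild-type and 4.897, 5.23 and 6.19 CPM in ΔTAD libraries. The groups overlapped, and the log2 fold change (−0.24, SE 0.123) did not pass the test (adjusted p = 0.0931). The deleted part is a short stretch of the transcript, so this level does not check the genotype. Other members of the family did move. Cebpa, the factor of granulocyte and macrophage precursors, was at 2.09, 3.76 and 3.27 CPM in wild-type and 12.2, 12.1 and 12.99 CPM in ΔTAD libraries, a log2 fold change of 2.05, SE 0.140, and was higher still in knock-out cells at 15.9 ± 1.54 CPM (ΔTAD minus knock-out −0.35, adjusted p = 0.0066, and 0.0303 and 0.0104 without ΔTAD 2 or ΔTAD 3). Cebpe, the factor of late granulocyte differentiation, was at 8.82, 7.64 and 8.72 CPM and 17.8, 17.7 and 19.9 CPM (1.14, SE 0.0892), while knock-out cells were at 8.74 ± 0.636 CPM, below ΔTAD cells (1.08, adjusted p = 5.92e-10 for ΔTAD minus knock-out). Cebpg and Cebpz were called higher by less, with 0.25 and 0.25 on the log2 scale. Cebpz lies on chromosome 17 and its value is below the median of that chromosome (0.50). The median of the 7 family members was 0.25, and 0.07 without chromosomes 12 and 17. Cebpb, the closest relative in inflammatory gene control, had a log2 fold change of −0.11 (adjusted p = 0.0548), and Ddit3 one of −0.17 (adjusted p = 0.201). Per length of exons, on a TPM scale computed from the CPM, the level of Cebpb was 121 in wild-type and 97.2 in ΔTAD cells, that of Cebpa 3.87 and 13.7, and that of Cebpd 5.82 and 4.25. TPM is a share of all tested genes, ribosomal RNA included, so these values rank genes within a genotype and do not compare the genotypes. Csf1r, for one, was called higher at 389 and 447 CPM but stood at 225 and 225 on this scale. Among the subunits of NF-Y, which binds the CCAAT box of many promoters, Nfya rose from 147 ± 4.06 to 246 ± 4.11 CPM (SD, n = 3), and Nfyb (−0.16, adjusted p = 0.0227) and Nfyc (−0.20, adjusted p = 0.0191) did not pass the test. Without ΔTAD 1 the value of Nfyc was −0.26 and passed (adjusted p = 0.003). Nfya lies on chromosome 17, whose genes were higher as a whole.

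Chromosomes 12 and 17 stood apart from the rest of the genome. On chromosome 12, 359 of 541 tested genes (66.4%) were lower and 27 higher, with a median log2 fold change of −0.54. On chromosome 17, 469 of 746 (62.9%) were higher and 50 lower, with a median of 0.50. On every other autosome and X the median lay between −0.063 and 0.032. The shift was alike in the 3 ΔTAD libraries, −0.49, −0.48 and −0.50 for chromosome 12 and 0.45, 0.44 and 0.46 for chromosome 17 (median log2(CPM + 0.5) minus the wild-type mean), while the wild-type libraries lay within 0.01 of their own mean there. It spanned the length of both chromosomes. All 517 windows of 25 neighbouring tested genes on chromosome 12 had a median below 0, and all 722 on chromosome 17 had one above 0. Knock-out cells had medians of −0.52 and 0.48 on these chromosomes, against the same wild-type libraries. Outside them 3269 of 13025 genes were higher and 2941 lower. The source of these shifts was not tested. The results below name the chromosome wherever a gene lies on 12 or 17.

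**Figure D3:**
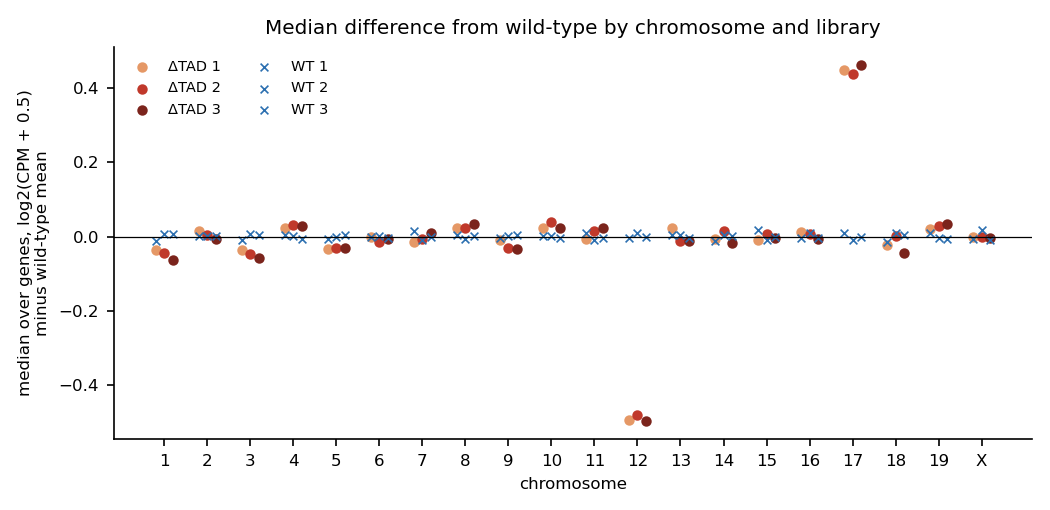
For each chromosome, the median over tested genes of log2(CPM + 0.5) minus the wild-type mean is drawn for each ΔTAD library (filled points) and each wild-type library (crosses). The ΔTAD libraries lie near −0.5 on chromosome 12 and near 0.45 on chromosome 17 and within about 0.06 of 0 elsewhere.

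C/EBP factors bind the palindrome TTGCGCAA and near relatives of it, so the stretch of 250 bases before the start site was searched for TTGCNNAA or TTNNGCAA (each is the other's reverse complement, so both strands are covered) in RefSeq promoters of GRCm38.p6. Of 9190 tested genes with a promoter sequence, 7.25% held these letters (95% Wilson interval 6.73% to 7.79%). The share was 7.73% (6.81% to 8.76%) among 2898 genes called higher and 7.02% (6.05% to 8.12%) among 2352 called lower, and 9.55% over all 27025 promoters. The intervals of all genes called higher and of all called lower overlap with that of all tested genes. At 2-fold or more it was 10.6% (8.03% to 13.9%) of 424 higher and 8.22% (6.0% to 11.2%) of 438 lower genes. The interval of these higher genes lies above that of all tested genes but holds the 9.55% of all promoters. That of the lower genes overlaps the interval of all tested genes. The groups were not matched by level of expression. In the whole sequence of 300 bases the share was 11.1% (8.44% to 14.4%) of the same higher genes against 8.09% (7.54% to 8.66%) of tested genes, and the intervals overlap. The CCAAT box, searched as CCAAT or ATTGG, stood in 37.1% (36.2% to 38.1%) of tested, 37.7% (35.9% to 39.4%) of higher and 34.9% (33.0% to 36.8%) of lower genes. A match is a description of the letters and not a site, and the intervals cover counting error only.

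Of 146 genes that the naming rule picked and that have a promoter sequence, 16 held the C/EBP letters, 9 of them higher and 7 lower in ΔTAD macrophages. Shown are 4 of the 16, because they moved far and in both directions, a choice made with their values known. Ptgs2 and Ctsl were lower, and Ctsk and Clec12a were higher. The full palindrome stood in 25 of the 9190 promoters, 9 of genes called higher and 6 of genes called lower. Of all 9190, 2898 were called higher and 2352 lower. Among the 25 are Ptgs2, which was among the genes that fell furthest, and Clec12a, which rose. Each line gives the 250 bases before the RefSeq start site, 5′ to 3′ on the strand of the gene, with the matched letters in capitals. The GENCODE model of Clec12a begins upstream of its matched letters, which therefore lie inside the gene in that annotation.
Ptgs2 (chr1:150099781-150100030, plus strand): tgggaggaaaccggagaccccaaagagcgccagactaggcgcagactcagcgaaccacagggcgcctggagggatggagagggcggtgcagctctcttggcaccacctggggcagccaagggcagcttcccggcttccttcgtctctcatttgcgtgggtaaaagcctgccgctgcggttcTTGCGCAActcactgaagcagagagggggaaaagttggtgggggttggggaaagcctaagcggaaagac
Ctsk (chr3:95498960-95499209, plus strand): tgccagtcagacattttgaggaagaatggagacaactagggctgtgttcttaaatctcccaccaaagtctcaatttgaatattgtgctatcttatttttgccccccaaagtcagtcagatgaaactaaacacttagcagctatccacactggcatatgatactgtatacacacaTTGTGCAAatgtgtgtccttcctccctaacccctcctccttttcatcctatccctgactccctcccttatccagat
Clec12a (chr6:129349994-129350243, plus strand): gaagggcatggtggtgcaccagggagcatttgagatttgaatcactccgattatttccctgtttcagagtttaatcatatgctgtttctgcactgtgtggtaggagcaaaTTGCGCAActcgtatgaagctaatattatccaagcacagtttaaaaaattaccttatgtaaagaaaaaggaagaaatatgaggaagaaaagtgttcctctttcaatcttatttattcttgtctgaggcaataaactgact
Ctsl (chr13:64370521-64370770, minus strand): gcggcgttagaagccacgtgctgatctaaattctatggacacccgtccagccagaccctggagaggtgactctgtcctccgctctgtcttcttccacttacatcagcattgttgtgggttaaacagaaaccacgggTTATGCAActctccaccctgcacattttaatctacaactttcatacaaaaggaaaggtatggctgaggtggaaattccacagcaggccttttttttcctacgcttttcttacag
The capitals begin 69 bases before the start site in Ptgs2, 76 in Ctsk, 140 in Clec12a and 114 in Ctsl. As the 4 genes were chosen to show both directions, they do not tell whether the letters go with a fall or a rise.

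The genes with the deepest falls had means of 9.24 to 454 CPM in wild-type and of 0.34 to 16.3 CPM in ΔTAD macrophages. Car2, the cytosolic carbonic anhydrase that supplies protons to acid-secreting cells such as osteoclasts, had 150.5, 158 and 158 CPM in wild-type and 1.05, 1.82 and 1.999 CPM in ΔTAD libraries. Its log2 fold change was −6.52, SE 0.0776, the lowest of the protein-coding genes with more than 3 counts in every library. Ccl2, the monocyte chemoattractant MCP-1, went from 38.04, 33.8 and 32.3 CPM to 0.420, 0.576 and 0.428 CPM (−6.16, SE 0.155). Ptgs2, the inducible cyclooxygenase of prostaglandin synthesis, was at 20.99, 20.9 and 21.6 CPM in wild-type and 0.140, 0.384 and 0.571 CPM in ΔTAD libraries (−5.73, SE 0.203). Ccl2 and Ptgs2 were low in knock-out cells too, at 0.727 ± 0.278 and 0.987 ± 0.544 CPM. Neither passed the test of ΔTAD minus knock-out (−0.57, adjusted p = 0.231, and −1.31, adjusted p = 0.012). Wild-type and ΔTAD libraries did not overlap in Car2, Ccl2 or Ptgs2, which for Car2 and Ccl2 was a condition of the picking.

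Ly6e, a small glycolipid-anchored surface protein of the Ly6 family, was the most abundant of this set, at 465, 441 and 457 CPM in wild-type and 16.4, 15.2 and 17.2 CPM in ΔTAD libraries (−4.80, SE 0.0485). Arsg, a lysosomal sulfatase, stood at 38.2, 42.6 and 35.7 CPM and 1.54, 0.864 and 0.952 CPM (−5.17, SE 0.129). Lgalsl, a galectin-like protein, stood at 24.5, 23.5 and 23.4 CPM and 0.490, 0.912 and 0.761 CPM (−4.98, SE 0.142). In knock-out cells these 3 were lower still or as low, with 0.116 ± 0.0643 CPM for Ly6e, 0.621 ± 0.0522 for Arsg and no counts for Lgalsl. Nhsl2 (−5.57), Sept3 (−4.93), a septin, and Tbx20 (−4.74), a T-box factor known from the heart, complete the 8 lowest. Of these 8 genes, 5 also differed from knock-out cells, 4 of them being less reduced in ΔTAD cells and Car2 more reduced (ΔTAD minus knock-out −2.11, adjusted p = 1.63e-11, against 33% of all genes that differed between the edited genotypes).

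Another 78 called genes, 62 of them protein-coding, had at most 3 counts in every ΔTAD library. Their folds are lower bounds, computed against 3 counts in each library. Emp2, a membrane protein of the tetraspan PMP22 family, was the most abundant of them with 33.6, 36.1 and 34.3 CPM in wild-type and 0.140, 0.0960 and 0.0952 CPM in ΔTAD libraries, at least 209-fold lower. Cd86, the ligand through which antigen-presenting cells costimulate T cells by CD28, had 6.73, 6.13 and 5.63 CPM in wild-type and no count in any ΔTAD library, at least 37.2-fold lower. No count for Cd86 was found in knock-out libraries either. Elovl4, an elongase of very long fatty acids, was at least 34.3-fold lower, the myeloid receptor Tarm1 at least 29.1-fold and the ephrin receptor Epha2 at least 28.6-fold. Of these 5 genes, Epha2 differed between ΔTAD and knock-out cells (−3.25, adjusted p = 4.3e-05).

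The genes with the largest rises were low in wild-type macrophages, with means of 0.245 to 6.54 CPM over the 8 highest, and had means of 11.6 to 228 CPM in ΔTAD macrophages. Malrd1, a receptor-like protein with MAM and LDL receptor domains, had 0.199, 0.232 and 0.484 CPM in wild-type and 88.8, 91.2 and 91.6 CPM in ΔTAD libraries (8.22, SE 0.124). In knock-out cells it stayed at 0.0201 ± 0.0349 CPM, so that the level belonged to ΔTAD cells among the 3 genotypes (ΔTAD minus knock-out 11.78, adjusted p = 1.31e-24, a fitted value against near-absent counts). Tfec, a basic helix-loop-helix factor of macrophages and osteoclasts related to Mitf, had 0.199, 0.232 and 0.303 CPM and 11.96, 12.7 and 10.2 CPM (5.55, SE 0.235).

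Calcrl, the receptor subunit for calcitonin gene-related peptide and adrenomedullin, rose from 2.54, 3.24 and 3.15 CPM to 124, 121 and 118 CPM (5.35, SE 0.0732). Csf2ra, the alpha chain of the GM-CSF receptor, rose from 0.249, 0.810 and 0.424 CPM to 17.1, 19.6 and 19.6 CPM (5.27, SE 0.183). Sptbn1, a spectrin of the membrane skeleton, rose from 5.38, 7.41 and 6.84 CPM to 219, 235 and 231 CPM (5.14, SE 0.0603). Flot2 (5.34), a flotillin of membrane rafts, and Dapk1 (5.33), a death-associated kinase, also belong to the 8 highest. Of the 8, 7 were higher in ΔTAD than in knock-out cells, and Flot2 did not pass that test (0.16, adjusted p = 0.0543). The 8 were picked for high values in the same ΔTAD libraries, and 33% of all genes differed between the edited genotypes. Over the 16 genes of both sets, standard errors ran from 0.0485 to 0.235 and adjusted p-values from 1.19e-28 to 3.87e-15.

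Called genes with at most 3 counts in every wild-type library numbered 18, 14 of them protein-coding. Adgb, androglobin, had 12.8, 12.2 and 11.9 CPM in ΔTAD libraries and was at least 73.2-fold higher. Ppp1r3b, which directs protein phosphatase 1 to glycogen, had 6.09, 6.34 and 6.47 CPM and was at least 37.4-fold higher, with no count in knock-out libraries. Creg2, D130040H23Rik and Dkk2, a WNT antagonist, were at least 13.2-fold, 8.48-fold and 8.41-fold higher. Genes at the floor in wild-type cells were fewer than genes at the floor in ΔTAD cells, 18 against 78.

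**Figure D4:**
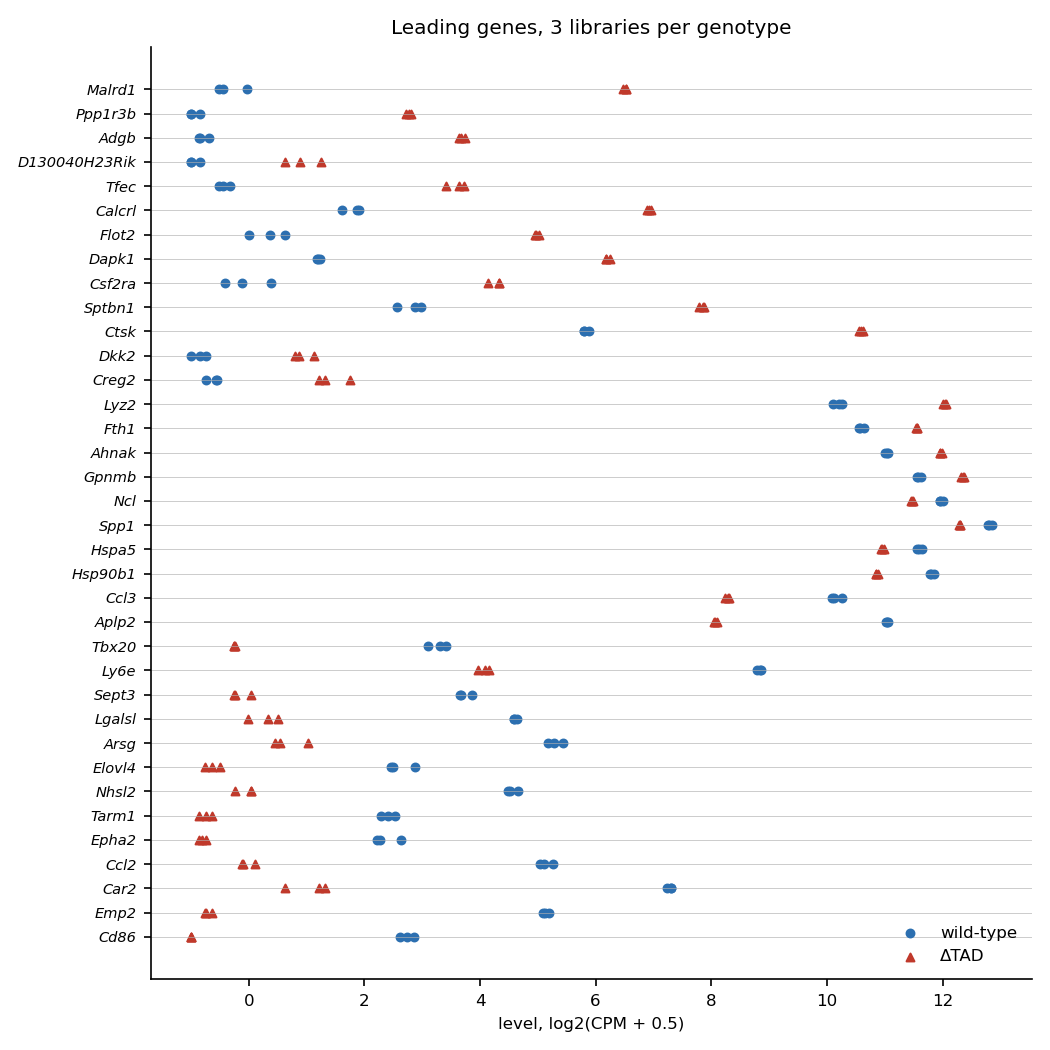
Levels of leading genes named in the text (log2(CPM + 0.5)) in the 3 wild-type (blue circles) and 3 ΔTAD (red triangles) libraries, ordered by the fitted log2 fold change from Cd86 at the bottom to Malrd1 at the top. No gene drawn has overlapping groups, and the libraries of 1 genotype lie close together.

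Among nuclear protein-coding genes, others came first by the amount of RNA gained or lost. Lyz2, lysozyme, gained most of these, from 1184, 1219 and 1099 CPM in wild-type to 4226, 4244 and 4104 CPM in ΔTAD libraries (1.84, SE 0.0372). Ctsk, cathepsin K, the collagen-degrading protease best known from osteoclasts, rose from 58.5, 54.98 and 55.4 CPM to 1581, 1543 and 1512 CPM (4.78, SE 0.0423). In knock-out cells Ctsk stood at 103.4 ± 4.76 CPM, and the difference between the edited genotypes was 3.90, adjusted p = 7.85e-28. Gpnmb, a glycoprotein of lysosome-rich macrophages, rose from 3083 ± 78.4 to 5214 ± 109.9 CPM (SD, n = 3), the scaffold protein Ahnak from 2104 ± 35.5 to 4001 ± 37.1 CPM, and Fth1, the ferritin heavy chain, from 1543 ± 47.7 to 3007 ± 25.3 CPM. Lars2, the other gene of this set, was described with library ΔTAD 1.

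Spp1, osteopontin, lost most RNA, from 7092, 7403 and 7139 CPM to 5032, 5026 and 5000 CPM (−0.52, SE 0.0173), whereas knock-out cells had more than wild-type cells at 10650 ± 265 CPM. Aplp2, a relative of the amyloid precursor protein, fell from 2101, 2089 and 2129 CPM to 266, 264 and 272 CPM (−2.98, SE 0.0300). Ccl3, the chemokine MIP-1α, fell from 1219, 1094 and 1113 CPM to 302, 316 and 313 CPM (−1.88, SE 0.0395). The remaining losses were of the endoplasmic reticulum chaperones Hsp90b1 (−0.96) and Hspa5 (−0.64) and of nucleolin, Ncl (−0.50). Of the 38 leading genes that the naming rule picked by size of change, Lars2 included and Ptgs2 not, 27 differed between ΔTAD and knock-out cells, 20 higher and 7 lower in ΔTAD cells. Of all tested genes 33% differed. The picking used the same ΔTAD libraries, which favours such differences, so the count is a description and no test.

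Functional groups were described with 24 gene lists, 21 of them written by hand with 707 different genes, of which 580 passed the filter on low counts. Of these 580, 296 were higher and 133 lower. Of the 8619 protein-coding genes whose mean reached 10 CPM, 60.9% were called, 35.2% higher and 25.7% lower, and the counts of each list are to be read against these shares.

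Inflammatory genes often tied to C/EBP factors were divided by their kind. Of 14 secreted proteins and enzymes, 5 had enough counts in these resting cells, and 4 of the 5 fell. Besides Ccl2 and Ptgs2 these were Ptges, the synthase that makes prostaglandin E2 downstream of cyclooxygenase (−1.32), and the acute-phase protein Saa3 (−1.21), both below 5 CPM. Tnf, tumour necrosis factor, was higher at 232, 234 and 232 CPM against 187, 175 and 176 CPM (0.38, SE 0.0359), and lies on chromosome 17. Il1b, Il6, Il10, Il12b, Nos2, Csf3 and Lcn2 had too few counts to be tested. Of 7 receptors and granule proteins 6 rose. Tlr4, the lipopolysaccharide receptor, was at 61.97, 72.98 and 71.9 CPM and 122, 108 and 98.5 CPM (0.66, SE 0.0600), and its co-receptor Cd14 at 922, 898 and 882 CPM and 1118, 1141 and 1117 CPM (0.32, SE 0.0274). The exception was Slpi, a secreted protease inhibitor at about 1 CPM (−2.88).

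Chemokine ligands of the CC family had no member that rose. Of 8 tested out of 12 listed, 6 fell. Ccl4, MIP-1β, was at 288, 260.1 and 267 CPM in wild-type and 84.5, 93.01 and 95.7 CPM in ΔTAD libraries (−1.57, SE 0.0514). Ccl9 was at 1130, 1144 and 1089 CPM and 526, 539 and 545 CPM (−1.06, SE 0.0323). Ccl7, a neighbour of Ccl2, had no count in ΔTAD libraries and 0.648, 0.926 and 0.969 CPM in wild-type libraries. Ccl2 did not pass the test against knock-out cells, where it was low too (−0.57, adjusted p = 0.231). Ccl3 and Ccl4 were lower than in knock-out cells, with ΔTAD minus knock-out values of −1.63, adjusted p = 2.45e-20 for Ccl3 and −1.51, adjusted p = 2.63e-17 for Ccl4. In contrast Cxcl16, the membrane-bound ligand of CXCR6 and a scavenger receptor, rose from 0.648, 0.405 and 0.484 CPM to 13.5, 12.7 and 12.8 CPM (4.62, SE 0.174). Among 7 tested receptors 3 rose and 4 fell. Cx3cr1, the fractalkine receptor of monocytes and tissue macrophages, rose from 24.98, 24.02 and 27.1 CPM to 178, 183 and 178 CPM (2.83, SE 0.0398), and Cxcr4 from 2.66 ± 0.606 to 11.7 ± 0.482 CPM. C5ar1, the receptor for complement C5a, fell from 33.1, 33.5 and 30.2 CPM to 2.87, 2.88 and 4.09 CPM (−3.28, SE 0.104). Over the 19 tested genes of the whole list, 4 were higher and 11 lower with a median of −1.06, the lowest of the lists.

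Cytokine and growth factor genes leaned the other way, with 24 of 39 tested genes higher, 8 lower and a median of 0.41. Receptors made up most of the rises, 17 of 22. Igf1, insulin-like growth factor 1, rose from 52.4, 58.3 and 49.2 CPM to 343, 332 and 329 CPM (2.65, SE 0.0481). Tgfbr1, a receptor of TGF-β, rose from 39.4, 44.6 and 46.1 CPM to 145, 137 and 129.6 CPM (1.66, SE 0.0474). Lower were Il18rap (−1.93) and Il1rap (−1.49), the accessory chains of the interleukin-18 and interleukin-1 receptors, the cytokine Osm (−1.17), and Tgfb1 (−0.40).

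In the Toll-like receptor and NF-κB list 31 of 47 tested genes rose and 7 fell (median 0.37). Of 12 Toll-like receptor genes and co-receptors 9 were higher and 1 lower. Tlr3, the sensor of double-stranded RNA, was at 2.29, 2.49 and 2.73 CPM and 10.5, 8.98 and 9.95 CPM (1.97, SE 0.132), Tlr9 rose by 0.75, and Tlr1, the partner of Tlr2 for triacylated lipopeptides, fell from 40.5, 40.2 and 40.9 CPM to 10.1, 9.796 and 8.52 CPM (−2.11, SE 0.0727). Among inhibitors, Tnip3 rose from 17.3 ± 0.754 to 79.5 ± 3.38 CPM and Nfkbie from 11.1 ± 0.569 to 42.8 ± 2.54 CPM, the latter on chromosome 17, and Socs3, the feedback inhibitor of IL-6 family signalling, fell from 26.4 ± 1.96 to 8.83 ± 0.582 CPM. Adaptors and kinases moved least, with 10 of 19 higher, 3 lower and a median of 0.13. Without ΔTAD 1 these were 6 higher, 3 lower and 0.069.

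Antigen presentation genes were mostly higher, 22 of 33 with 5 lower (median 0.52), but 14 of the 33 lie on chromosome 17, which carries the mouse major histocompatibility complex, and none on 12. Class I heavy chains H2-K1 (1.36) and H2-D1 (1.32) and the transporter Tap1 (1.07) rose by more than the 0.50 of that chromosome's median, and H2-M3, a class I molecule for formylated peptides, fell from 44.96 ± 2.33 to 19.6 ± 0.481 CPM against it. B2m, their light chain on chromosome 2, rose from 192 ± 1.56 to 255 ± 9.26 CPM (0.41, SE 0.0378). Ctss, the cathepsin that trims the invariant chain of class II, rose from 848 ± 12.7 to 1781 ± 6.57 CPM. Costimulatory molecules went apart. Cd83, a maturation marker of antigen-presenting cells, rose from 2.84, 2.66 and 2.79 CPM to 21.96, 22.2 and 21.2 CPM (2.97, SE 0.0995), while Cd86 had no counts left and Cd80, its relative, fell from 34.5 ± 0.745 to 22.4 ± 1.84 CPM. The list as written also holds Hvcn1, a proton channel and no costimulatory molecule, which rose (3.94).

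Interferon-stimulated genes, whose median level was 5.2 CPM, were called in 52.2% of cases, against 57.5% of all protein-coding genes tested, with 20 of 46 higher, 4 lower and 22 not called (median 0.22). Without ΔTAD 1, 16 of 49 were higher and 3 lower (median 0.13). Slfn2 rose from 13.5 ± 1.03 to 41.3 ± 2.07 CPM and Lgals3bp from 27.8 ± 2.78 to 65.2 ± 2.16 CPM, and Oasl1 fell from 7.199 ± 0.633 to 3.36 ± 0.607 CPM. The transcription factors of this response, Irf5 (0.61) and Irf8 (0.18) among them, rose in 5 of 7 cases. Irf8 lost its call without ΔTAD 1 (adjusted p = 0.0187) and without ΔTAD 3 (adjusted p = 0.011).

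Of 50 genes of macrophage identity 39 were tested, and 25 of these were higher and 8 lower (median 0.36). Clec12a, an inhibitory C-type lectin receptor, rose from 8.78, 10.1 and 8.296 CPM to 64.5, 64.9 and 62.1 CPM (2.81, SE 0.0721). Csf1r, the receptor for the growth factor of macrophages, rose by 0.20. Itgax, the CD11c chain of dendritic cells and some macrophages, fell from 14.9, 16.4 and 14.4 CPM to 6.23, 5.33 and 5.71 CPM (−1.41, SE 0.102). Fcgr3, an activating Fc receptor, fell from 13.5 ± 0.654 to 6.21 ± 0.554 CPM.

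Of the 21 hand-written lists, cholesterol synthesis had the largest share of genes higher, 23 of 25 tested with 1 lower and a median of 0.66. The rises were small and alike. Hmgcs1, which makes HMG-CoA, went from 90.05 ± 1.496 to 198 ± 10.5 CPM, Fdft1, squalene synthase, from 30.3 ± 0.587 to 66.5 ± 2.204 CPM, and Srebf2, the factor that drives the pathway, from 213 ± 5.21 to 334 ± 8.44 CPM. Acat2, with the highest value (1.23), is on chromosome 17. The member that fell, Scap (−0.24), encodes the sterol sensor that escorts SREBP proteins. The knock-out values of Hmgcs1 and Fdft1 were 192 ± 7.03 and 56.6 ± 1.85 CPM. Fdft1 differed between the edited genotypes (0.23, adjusted p = 8.69e-05), and Hmgcs1 did not pass that test (0.05, adjusted p = 0.357).

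Of 19 tested genes of lipid efflux and storage 12 were higher and 4 lower, with a median of 0.37. Abca1, which loads cholesterol onto apolipoprotein A-I, rose from 15.1, 18.5 and 19.1 CPM to 146, 146 and 134 CPM (3.02, SE 0.0580), and Abcg1, on chromosome 17, from 58.9, 62.5 and 64.6 CPM to 218, 206 and 187 CPM (1.72, SE 0.0551). Pltp, the phospholipid transfer protein, rose from 46.4 ± 0.612 to 104.4 ± 1.33 CPM. Soat1, which esterifies cholesterol for storage, fell by 0.30 on the log2 scale, and Fabp4, a fatty acid binding protein, from 9.07, 9.26 and 9.63 CPM to 1.89, 2.401 and 1.81 CPM (−2.18, SE 0.140). In the list of scavenger receptors and lipid handling 18 of 28 were higher and 6 lower (median 0.29), and Lrp1 (0.72) and Lpl (0.37) were among its most abundant members.

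Lysosomal genes were higher in 38 of 52 cases and lower in 4 (median 0.43). Membrane proteins and hydrolases had 19 of 24 higher and none lower, and subunits of the proton pump 13 of 17 higher and 1 lower. The proteases differed more among themselves. Next to Ctsk, Ctsb rose from 3072 ± 64.3 to 3787 ± 101.3 CPM and Ctsd from 864 ± 44.5 to 1098 ± 9.07 CPM, while Ctsl, cathepsin L, fell from 594, 586 and 578 CPM to 159, 176 and 172 CPM (−1.79, SE 0.0389). Ctsc (−0.31) and Lgmn (−0.27, on chromosome 12) were lower too. In the osteoclast list 11 of 17 were higher and 3 lower (median 0.50). Gpr137b, a lysosomal membrane protein, rose from 36.7 ± 4.04 to 100.4 ± 4.44 CPM (1.44, SE 0.0516), and Tcirg1, the osteoclast pump subunit, from 217 ± 11.6 to 332 ± 3.39 CPM. The members that fell were Car2, Spp1 and Dcstamp, a fusion protein (−0.58). Itgb3, the integrin chain of osteoclast attachment, had too few counts for the test, with 14, 11 and 4 counts in wild-type and 0 in each ΔTAD library.

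Of 24 adhesion and matrix genes tested out of 46 listed, 9 fell and 7 rose (median −0.11), and without ΔTAD 1 12 fell and 6 rose of 27 (median −0.16). Timp2, an inhibitor of metalloproteinases, rose from 8.38, 8.102 and 8.599 CPM to 58.9, 57.6 and 59.4 CPM (2.81, SE 0.0596). Plau, urokinase, and Plaur, its receptor, fell, from 1845 ± 108 to 1079 ± 53.7 CPM and from 133 ± 4.04 to 50.7 ± 3.71 CPM. Itgb7 fell from 41.7 ± 2.06 to 12.8 ± 0.800 CPM, and Itga5, the fibronectin receptor chain, rose from 156 ± 8.11 to 265 ± 9.52 CPM. Thbd, thrombomodulin, was not tested, with 24, 9 and 28 counts in wild-type and 4, 2 and 1 in ΔTAD libraries.

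Of the NADPH oxidase, which makes superoxide in phagocytes, 6 of 7 genes rose and none fell, led by Cybb from 297, 307 and 293 CPM to 517, 516 and 491 CPM (0.77, SE 0.0361) and Cyba from 139.6 ± 5.09 to 234 ± 8.17 CPM. Complement genes were split 3 and 3 of 9. Cfp, properdin, which stabilises the convertase of the alternative pathway, fell from 245, 249.6 and 236 CPM to 90.9, 98.05 and 106.6 CPM (−1.30, SE 0.0440). Inflammasome genes were higher in 11 of 14 cases. Casp4, the mouse caspase-11 that senses intracellular lipopolysaccharide, rose from 1.895, 2.49 and 2.24 CPM to 13.01, 12.3 and 12.7 CPM (2.53, SE 0.122), and Nlrc4, on chromosome 17, from 2.58 ± 0.498 to 8.66 ± 0.330 CPM. In the BCL2 family and caspases 12 of 21 rose and 5 fell, among them the anti-apoptotic Mcl1 (0.31) and Bcl2l1 (−0.48) in opposite directions.

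The unfolded protein response was lower. Of 22 tested genes 15 fell and 2 rose (median −0.37). The genes that fell were mainly chaperones and disulfide isomerases of the endoplasmic reticulum. Hsp90b1, GRP94, was at 3572, 3714 and 3519 CPM in wild-type and 1835, 1886 and 1841 CPM in ΔTAD libraries (−0.96, SE 0.0231). Hspa5, BiP, was at 3088, 3190 and 3025 CPM and 1983, 2039 and 1952 CPM (−0.64, SE 0.0242). Pdia4 was at 457, 454 and 440.1 CPM and 253, 258 and 259 CPM (−0.81, SE 0.0348). Pdia6 (−1.10) lies on chromosome 12. The 2 that rose, Eif2ak3 (0.51) and Ern1 (0.34), encode sensors of the response, PERK and IRE1α. The decrease of Hsp90b1 was shared by knock-out cells at 1820 ± 27.7 CPM (ΔTAD minus knock-out 0.03, adjusted p = 0.366).

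Targets of NRF2, the antioxidant factor, were lower in 9 and higher in 5 of 18 cases (median −0.16), with Gpx1 rising from 328 ± 11.4 to 584 ± 19.4 CPM and Hmox1, heme oxygenase, falling from 326 ± 14.4 to 256 ± 8.88 CPM. Iron genes were split 5 and 5 of 13. The iron exporter Slc40a1, ferroportin, fell from 40.2, 39.8 and 38.7 CPM to 15.5, 16.9 and 15.8 CPM (−1.30, SE 0.0548) while knock-out cells were at 81.9 ± 0.870 CPM (−2.35, adjusted p = 2.78e-21 for ΔTAD minus knock-out). The reductase Steap3 rose from 44.6 ± 2.39 to 100.3 ± 2.19 CPM.

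Glycolysis was divided evenly, 7 higher and 7 lower of 22. Aldoc rose from 38.5, 35.9 and 39.2 CPM to 117, 119 and 124 CPM (1.67, SE 0.0404), and Pkm, a far more strongly counted gene, fell by 0.23 on the log2 scale. Of 11 hypoxia response genes 6 rose and 3 fell. Ankrd37, an ankyrin repeat protein, rose from 2.32 ± 0.540 to 5.41 ± 0.192 CPM (1.20, SE 0.181) and Adm, the vasodilator peptide adrenomedullin, from 8.61 ± 0.436 to 17.4 ± 2.11 CPM (1.02, SE 0.0979). Ndrg1 fell from 252, 244 and 233 CPM to 81.4, 85.8 and 89.8 CPM (−1.50, SE 0.0394), and Hif1a, the factor itself, from 306 ± 6.27 to 174 ± 1.88 CPM on chromosome 12.

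Cell cycle genes were called in 51.8% of cases, below the 60.9% of protein-coding genes that reached 10 CPM, 16 higher and 13 lower of 56 (median −0.02). The D-type cyclins, which start the cycle, were among those that moved. Ccnd2 fell from 245, 249 and 250.4 CPM to 79.1, 84.8 and 78.9 CPM (−1.61, SE 0.0384) and Ccnd1 from 1059, 1015 and 992 CPM to 534, 539.5 and 569 CPM (−0.90, SE 0.0327). Ccnd3, on chromosome 17, rose by 0.66. Cdkn2c, the inhibitor p18 of their kinases, rose from 26.8 ± 0.655 to 64.1 ± 2.08 CPM. Genes of DNA methylation and silencing were split 7 and 7 of 24 (median −0.03), with Dnmt1 at 0.22 and Tet2 at −0.35. Ribosomal protein genes hardly moved, with 14 higher and 13 lower of 83 and a median of −0.01. Histone genes had 17 higher and 6 lower of 62, with a median of 0.07 that became −0.02 when libraries were scaled by total counts alone. Of 10 genes of the mitochondrial genome 5 were higher and none lower (median 0.28), among them mt-Nd5 from 1761 ± 99.2 to 2344 ± 70.2 CPM. All 4 tested genes for ribosomal RNA, or overlapping it, were called higher with a median of 3.31, a value that library ΔTAD 1 raises. Without that library 3 of the 4 were still called higher, with a median of 1.08. The other, mt-Rnr2, the large mitochondrial ribosomal RNA, was then at a log2 fold change of −0.27 (adjusted p = 0.264).

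**Figure D5:**
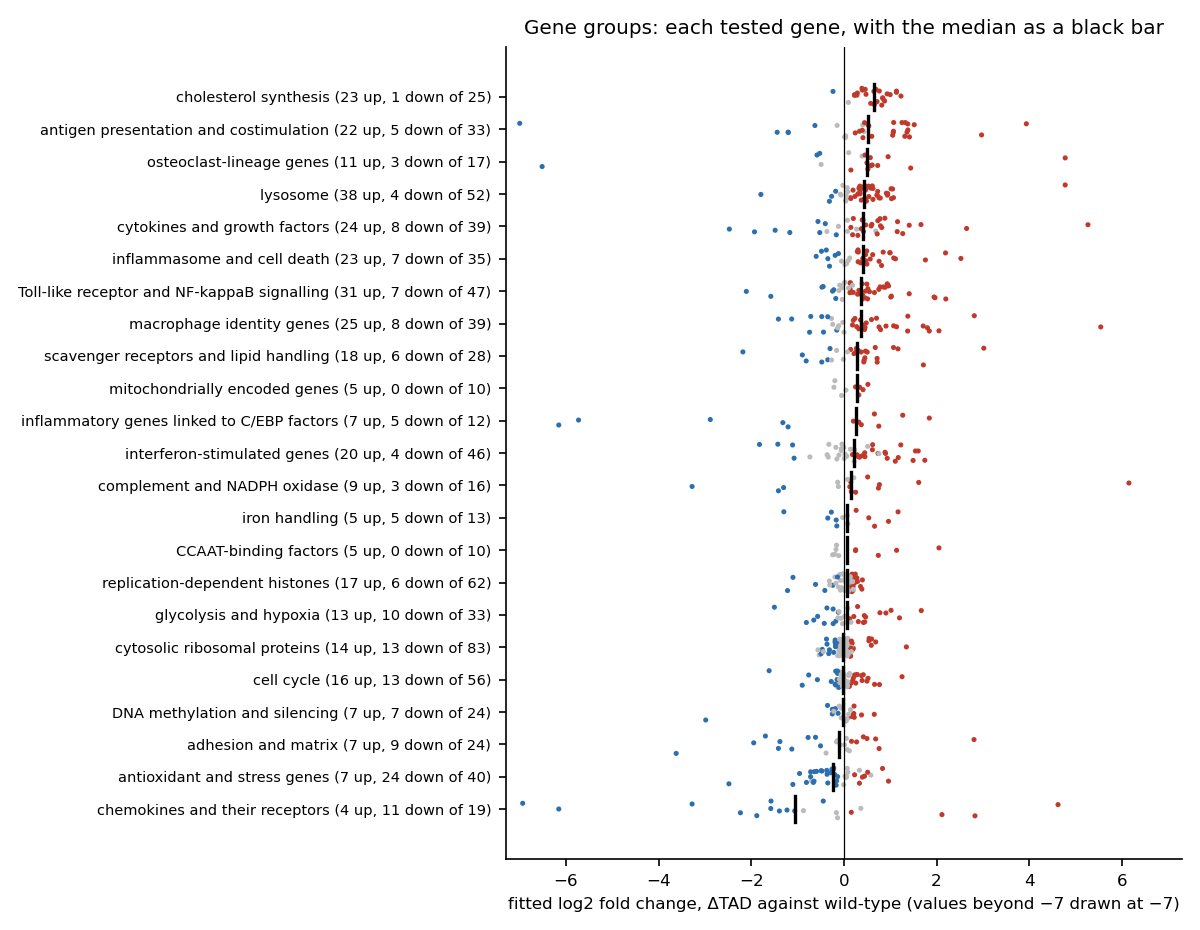
Each point is the fitted log2 fold change of 1 tested gene of a list (red called higher, blue called lower, grey not called), and the black bar is the median of the list. Lists are ordered by median, from chemokines and their receptors at −1.06 to cholesterol synthesis at 0.66, and labels give the genes higher and lower of those tested. The list of ribosomal RNA genes is not drawn.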

How the data were processed

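RNA of unstimulated RAW264.7 macrophages was sequenced by the authors as 50-base single reads from libraries depleted of ribosomal RNA. The submitters' processing notes name Trimmomatic 0.36, HISAT2 and HTSeq, and the paper gives GRCm38. What the authors deposited are whole-number counts per Ensembl gene in 1 list for each library, neither normalized nor filtered. The strand setting of the counting is not given in the sources used here, so overlapping and antisense genes, near-identical copies and rRNA-like gene models are uncertain. Between 16113306 and 20981829 counts fell on genes. A count of 3, taken as the floor, is 0.143 to 0.186 CPM, and this floor and the 95% intervals cover counting error only.

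Groups and replicate numbers come from the labels. Counts were analysed with edgeR 4.0.16 (R 4.3.3). Genes were kept by filterByExpr (minimum count 10, total 15), scaled by TMM, and fitted in 1 quasi-likelihood model of all 9 libraries. ΔTAD minus wild-type, and for named genes ΔTAD minus knock-out, were tested with Benjamini-Hochberg adjustment over 14312 genes, and a gene was called at an adjusted p under 0.01, as in the paper. SE was taken as log2 fold change over the root of F. The symbols and positions are of GENCODE M21, and promoters are from RefSeq. In simulated counts with 100 genes changed 1.5-fold and 100 changed 2-fold, 78% and 94% were called among 14076 genes, none in the wrong direction. The simulation gave every gene the same spread and held no shifted chromosome and no library like ΔTAD 1. It therefore does not tell how the test does under these features of the data.

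Named are the C/EBP and NF-Y genes, the 8 highest and 8 lowest called protein-coding genes (libraries not overlapping, more than 3 counts in each, at least 5 CPM in the higher group), the 5 most abundant per direction with at most 3 counts in every library of 1 genotype, the 6 largest CPM gains and losses, and per list up to 3 genes per direction and the 3 most abundant. Ccl7, Ern1, H2-D1, H2-K1, Kdr, Ptges, Saa3, Slpi, Tap1, Tnf and Vwf were named after their values were seen. A few genes picked by the rule are not reported here. The comparison, the gene lists and the rule were chosen with earlier results of these data known. Alternatives were DESeq2 1.42.0 and limma-voom 3.58.1, other scalings and filters, the 2 genotypes alone, a replicate block, other thresholds, leaving out chromosomes 12 and 17, and leaving out each library.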

Additional observations from a re-analysis of the deposited data

Results flagged for a closer look

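HTSeq's tally lines, which enter no comparison, gave 4 values above the wild-type libraries. In ΔTAD 1, 16.28% of records were set aside as aligned to more than 1 place, against 13.3% to 13.6% in wild-type and 12.7% and 13.0% in ΔTAD 2 and 3, and 14.61% were not aligned, against 12.6% to 13.6% in wild-type. Reads falling on overlapping genes made up 1.191% of records in ΔTAD 2 and 1.241% in ΔTAD 3, against 1.05% to 1.13% in wild-type.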

How the results depend on the processing

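Over the alternatives that kept the threshold of 0.01 and did not require a 2-fold change, 2585 to 4100 genes were higher and 2941 to 3943 lower in ΔTAD macrophages, all within 1.5 times the main counts. Requiring a log2 fold change of at least 1 left 585 and 748. Leaving out 1 library gave 3409 to 3605 genes higher and 2984 to 3618 lower, and the log2 fold change of Cebpd ran from −0.35 to −0.15, past the test in no setting. DESeq2 called 3326 and 3097 genes and limma-voom 3752 and 3341. Each library carries a donor ID of its own in the labels, and the deviations of same-numbered libraries from the group means correlated at −0.0662, 0.02 and −0.042, so the numbers do not pair them. With the replicate block 3665 and 3235 genes were called, the log2 fold change of Cebpd was −0.26, and of the 147 other genes named mt-Rnr2 lost its call. Of 2356 values of named genes under alternatives, 2332 kept their direction and side of the threshold, 16 lost the call, 5 gained it and 3 changed sign. The sign changed for mt-Rnr2 without ΔTAD 1 (−0.27, against up to 2.62 when another library was left out) and, against knock-out with library size alone, for Hsp90b1 (−0.0476, adjusted p = 0.582) and Hmgcs1 (−0.0287, adjusted p = 0.777). The share of tested promoters with the C/EBP letters was 8.09% in the whole sequence of 300 bases. Scaling by library size alone shifted list medians by −0.0938 to −0.0815 and turned 4 near 0, those of CCAAT factors, iron, glycolysis and histone genes. Requiring 10 counts in every library moved list medians by −0.18 to 0.10, and the other settings by −0.11 to 0.063, the ribosomal RNA list aside. The medians of chromosomes 12 and 17 stayed between −0.63 and −0.53 and between 0.41 and 0.50. The cause of these shifts was not tested. Depth limits the lists: 127 of 707 hand-listed genes had too few counts to be tested.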

Other observations

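Gene models other than protein-coding ones were more often lower than higher in ΔTAD macrophages, 569 against 209 of 3299 tested, whereas 3556 protein-coding genes were higher and 2781 lower of 11013. Over all 14312 tested genes 26.3% were called higher and 23.4% lower. Models of the class TEC, transcripts that still await experimental proof, fell in 210 and rose in 16 of 802 cases (median log2 fold change −0.49), sense-intronic models fell in 31 and rose in 1 of 120 (−0.46), snoRNA genes, which guide RNA modification and mostly lie in introns, fell in 17 and rose in none of 87 (−0.51), and lincRNAs fell in 94 and rose in 33 of 290 (−0.30). Processed pseudogenes did not share this, with 71 higher and 77 lower of 1189 and a median of 0.00077. The share called lower in TEC, sense-intronic and snoRNA models was near that of all genes, and few of them were called higher. The medians of the first 3 classes lay between −0.25 and −0.40 on the log2(CPM + 0.5) scale in each ΔTAD library, and between −0.59 and −0.55 in the model without ΔTAD 1. In knock-out cells, against the same wild-type libraries, the medians of these 3 classes were 0.21, 0.23 and −0.16. Records outside annotated genes made up 20.6% to 21.5% of ΔTAD and 22.2% to 24.3% of wild-type libraries. Their part in this pattern was not tested, and these classes were picked after their values were seen.

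Outside chromosomes 12 and 17, the runs of 25 neighbouring tested genes with the most extreme medians are given as values. They were picked as extremes, keeping only the most extreme run of a chromosome in each direction. How many runs had large medians was not counted. Of all tested genes 49.7% were called. The lowest was on chromosome 9 from Gm37879 to Pigb, with a median of −0.67, 10 genes lower and none higher, followed by runs on chromosome 3 (−0.60, 13 lower and 2 higher) and chromosome 1 (−0.59, 11 lower and 3 higher). The highest was on chromosome 11 from Cyth1 to Cep131 (0.36, 15 higher and 5 lower). On chromosome 5 between 53546351 and 61811163 (GRCm38) the median was −0.51 in ΔTAD and 0.50 in knock-out cells, with 5 genes called lower and 1 higher in ΔTAD cells.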
